A study of Mus musculus with 6 samples.

Results

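The sites described here are the autosomal ZFP57 peaks of JB1 ESCs that overlapped a KAP1 peak of JB1 by at least 1 bp and overlapped neither a ZFP57 nor a KAP1 peak of BJ1. They were 269 of the 9831 autosomal ZFP57 peaks of JB1 (2.74%), or 269 of the 6036 that overlapped KAP1 in the same line (4.46%), and are called JB1-only sites below. JB1 and BJ1 are male hybrid mouse ESC lines from reciprocal crosses, cultured without feeder cells in the presence of LIF. In JB1 the mother was JF1 and the father B6. In BJ1 the parental strains were exchanged, and both lines carried a JF1 and a B6 copy of every autosome. The antibodies were ab45341 for ZFP57 and ab10483 for KAP1 (both Abcam), and ChIP-seq gave 1 library per line and antibody. Each line is therefore 1 clone with 1 library, and a difference between the lists of JB1 and BJ1 cannot be told apart from a difference between libraries. No test across samples was possible. The identity of the cells as ESCs was not checked, because peak positions give no expression of marker genes.

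ZFP57 is a zinc-finger protein of the KRAB family that binds a short methylated DNA motif, and in ESCs it is best known for keeping DNA methylation at imprinting control regions. KAP1 (TRIM28) is the co-repressor that KRAB zinc-finger proteins recruit, and it brings in histone methyltransferases and other repressors. KAP1 also reaches many repeated elements of the genome through other zinc-finger proteins, so that a KAP1 peak need not depend on ZFP57.

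The sites were chosen by the measured positions of the peaks in the 4 lists, so the absence of BJ1 peaks is a description. The lists of the lines were of very unequal length. JB1 had 10667 ZFP57 peaks and BJ1 had 1318, whereas JB1 had 38713 KAP1 peaks and BJ1 had 72535. A BJ1 ZFP57 peak was lacking at 94.5% of all autosomal JB1 ZFP57 peaks and at 91.3% of those over JB1 KAP1, so this part of the rule removed few sites. A BJ1 KAP1 peak was lacking at 13.8% of the autosomal JB1 KAP1 peaks, and at 4.51% of those over a JB1 ZFP57 peak. Only 2 of the ZFP57-KAP1 sites of JB1 had ZFP57 without KAP1 in BJ1. The comparison set was the 5765 autosomal ZFP57 peaks of JB1 with a KAP1 peak in both lines, of which 523 also had a ZFP57 peak in BJ1. The intervals beside shares are Clopper-Pearson limits (95%, exact) and reflect only the counting error. The read depth is unknown from the lists.

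The sequences below show the motif at JB1-only sites in its different surroundings. All are from mm9, 5′ to 3′, and the capitals mark TGCCGC or GGCCGC, the forms of the ZFP57 motif searched here, on either strand (GCGGCA and GCGGCC on the opposite strand). The peak in an intron of *Enpp1*, which encodes an ectonucleotide pyrophosphatase, is shown whole because the bases around its motif recur at 311 sites with KAP1 in both lines. It spans chr10:24411301-24411600 and is printed from the plus strand.
Enpp1: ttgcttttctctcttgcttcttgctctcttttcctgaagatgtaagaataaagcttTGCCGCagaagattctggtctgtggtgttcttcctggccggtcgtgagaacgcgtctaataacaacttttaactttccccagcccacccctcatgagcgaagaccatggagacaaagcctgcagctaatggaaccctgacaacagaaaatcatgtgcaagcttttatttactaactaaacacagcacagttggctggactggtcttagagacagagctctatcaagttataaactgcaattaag
The next windows hold a couple of motifs, meaning neighbouring motifs that start less than 38 bp apart, with 12 bases on either side. The first lies 13123 bp from *Dcn* (decorin, a proteoglycan of the extracellular matrix) at chr10:96994550-96994608 on the plus strand. It and the next pair are examples of 10 sites with related bases.
Dcn: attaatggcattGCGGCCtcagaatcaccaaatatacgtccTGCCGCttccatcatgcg
Serinc5 (chr13:93393246-93393304, plus strand): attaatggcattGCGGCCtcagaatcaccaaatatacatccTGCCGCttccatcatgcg
Mms22l (chr4:24404802-24404860, plus strand): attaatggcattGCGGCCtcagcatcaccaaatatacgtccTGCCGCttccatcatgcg
The remaining windows have other sequences and include an intron of *Arl15*, a gene of the ADP-ribosylation factor family.
Arl15 (chr13:114708435-114708500, plus strand): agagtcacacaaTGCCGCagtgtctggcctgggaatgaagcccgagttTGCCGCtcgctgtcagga
Gm6084 (chr17:40805428-40805474, plus strand): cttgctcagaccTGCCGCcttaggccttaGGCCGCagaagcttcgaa

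The ZFP57 motif was found in 119 of the 269 JB1-only sites, or 44.2% (38.2% to 50.4%). At the sites with KAP1 in both lines it was found in 5015 of 5765, or 87.0% (86.1% to 87.8%), and the intervals did not overlap. Among all autosomal ZFP57 peaks of JB1 the share was 53.2%, and at the 3795 peaks without KAP1 in JB1 it was 2.61% (2.13% to 3.17%). Autosomal windows with the widths of the JB1-only sites held a motif in 5.03% of cases. The JB1-only sites lay between the sites with KAP1 in both lines and those without KAP1 in JB1.

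The form TGCCGC was found in 113 JB1-only sites (42.0%, 36% to 48.2%) and in 79.8% (78.7% to 80.8%) of the sites with KAP1 in both lines, against 2.96% of windows of the same widths and 48.5% of all autosomal ZFP57 peaks. The form GGCCGC was found in 31 JB1-only sites (11.5%, 7.97% to 16%) and in 13.4% (12.5% to 14.3%) of the comparison set, against 2.39% of windows and 8.63% of all autosomal ZFP57 peaks. These intervals overlapped. At the 523 comparison sites with ZFP57 in BJ1 the share with GGCCGC was 27.7% (23.9% to 31.8%), above the interval of the JB1-only sites. GGCCGC without TGCCGC was present in 6 JB1-only sites (2.23%, 0.823% to 4.79%) and in 7.22% (6.56% to 7.91%) of the comparison set. Over all autosomal ZFP57 peaks it was 4.70%, which the interval of the JB1-only sites included.

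Of the JB1-only sites with a motif, 72 held 1 motif, 34 held 2 and 13 held 3 or more, with at most 4. A couple of motifs was found in 17 sites (6.32%, 3.72% to 9.93%), against 10.5% (9.73% to 11.3%) of the sites with KAP1 in both lines and 6.37% of all autosomal ZFP57 peaks, which the interval of the JB1-only sites included. The 5242 comparison sites without ZFP57 in BJ1 had a couple in 7.95% (7.24% to 8.72%), which the interval of the JB1-only sites included. The 523 with ZFP57 in BJ1 had a couple in 36.1% (32% to 40.4%), above that interval. The share of JB1-only sites was 2.98% with no BJ1 peak within 1 kb, 2.47% with none within 10 kb, 10.5% with JB1 peaks of at least 450 bp and 0.743% (0.0902% to 2.66%) with starts less than 25 bp apart, where the comparison set had 6.85%. Of the 17 couples, 10 were copies of related sequence. Among sites with at least 2 motifs the share with a couple was 36.2% (22.7% to 51.5%) in the JB1-only sites and 45.4% (42.7% to 48.1%) in the comparison set, and these intervals overlapped. In the comparison sites with ZFP57 in BJ1 this share was 61% (55.3% to 66.4%), above the interval of the JB1-only sites. In the 16 couples outside chromosome 18 the motifs started 16 to 36 bp apart, and they were in inverted orientation in 13 and in the same orientation in 3.

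**Figure D1:**
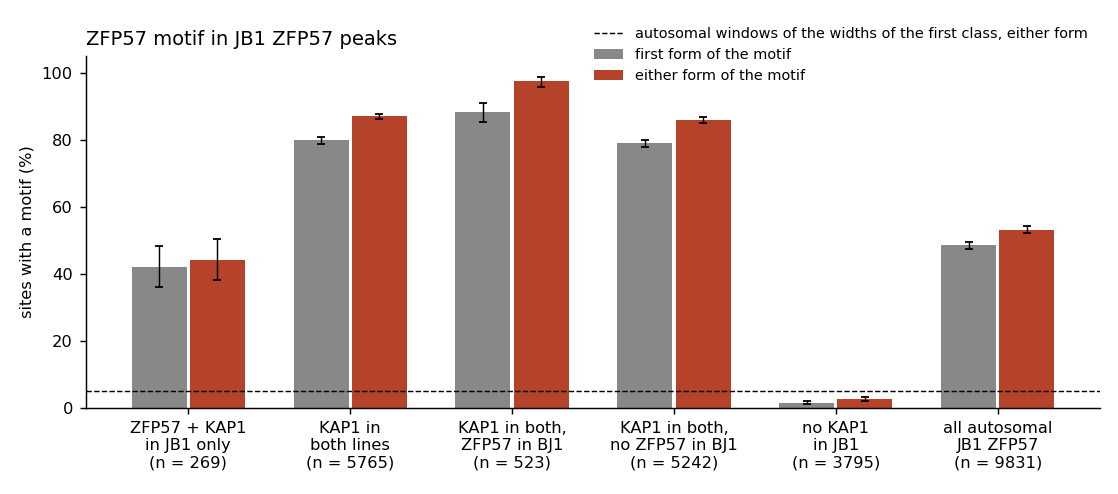
Percentage of JB1 ZFP57 peaks with the first form of the motif (TGCCGC, grey) or with either form (red) in each class of sites; bars show 95% Clopper-Pearson intervals and the dashed line the 5.03% of autosomal windows of the same widths. The JB1-only sites stand at 44.2% and the sites with KAP1 in both lines at 87.0%.

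The bases around TGCCGC were counted in each class. At the sites with KAP1 in both lines the 5883 copies of TGCCGC were followed by A in 74.8% of cases, then by G in 73.4% and by A in 71.1%, and were preceded by T at the last base in 61.5% and at the base before it in 73.5%. At the JB1-only sites the 149 copies were followed by A in 55.0%, then by G in 37.6% and by A in 20.1%, and were preceded by T in 30.9% and 28.2% at the same positions. At the comparison sites that also had ZFP57 in BJ1, with 978 copies, A followed in 53.0%, then G in 46.7% and A in 41.2%, and T preceded in 43.5% and 43.0%, so that these sites were nearer to the JB1-only sites than the whole comparison set was. The most common base just before the motif was C at the JB1-only sites (47.7%). Copies in related sequences share their flanks, so these counts are a description of the sequences in each class.

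The ZFP57 peaks of the JB1-only sites had a median width of 450 bp, with quartiles of 300 and 600 bp. The median was also 450 bp in the comparison set (450 to 600) and over all autosomal ZFP57 peaks. At the comparison sites with ZFP57 in BJ1 it was 750 bp (750 to 750), with 3.44% of peaks at 300 bp and 83.2% of at least 600 bp. Peaks of 300 bp, the smallest width in the lists, were 87 of the 269 JB1-only sites (32.3%, 26.8% to 38.3%) against 16.1% (15.2% to 17.1%), and peaks of at least 600 bp were 27.5% (22.3% to 33.3%) against 49.4% (48.1% to 50.7%). Among all autosomal ZFP57 peaks 31.8% were 300 bp wide, so the share of 300 bp peaks at the JB1-only sites was at the background and that of the comparison set was below it.

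The KAP1 peaks differed more between the classes than the ZFP57 peaks, and the JB1-only sites were the nearer to the whole KAP1 list. The median over all 36174 autosomal JB1 KAP1 peaks was 600 bp. The JB1 KAP1 peak over a JB1-only site had a median width of 600 bp (quartiles 450 and 750 bp), and that over a site with KAP1 in both lines had a median width of 1800 bp (quartiles 900 and 2850 bp), or 1200 bp where BJ1 also had ZFP57. A KAP1 peak of at most 600 bp was present at 69.1% (63.3% to 74.6%) of the JB1-only sites and at 7.30% (6.64% to 8.00%) of the comparison set, against 54% of all autosomal JB1 KAP1 peaks. A KAP1 peak of more than 900 bp was present at 50 JB1-only sites (18.6%, 14.1% to 23.8%) and at 74.2% (73.1% to 75.4%) of the comparison set, against 23.4% of all. The KAP1 peak covered the ZFP57 peak whole at 194 JB1-only sites (72.1%, 66.4% to 77.4%), against 98.6% (98.3% to 98.9%).

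**Figure D2:**
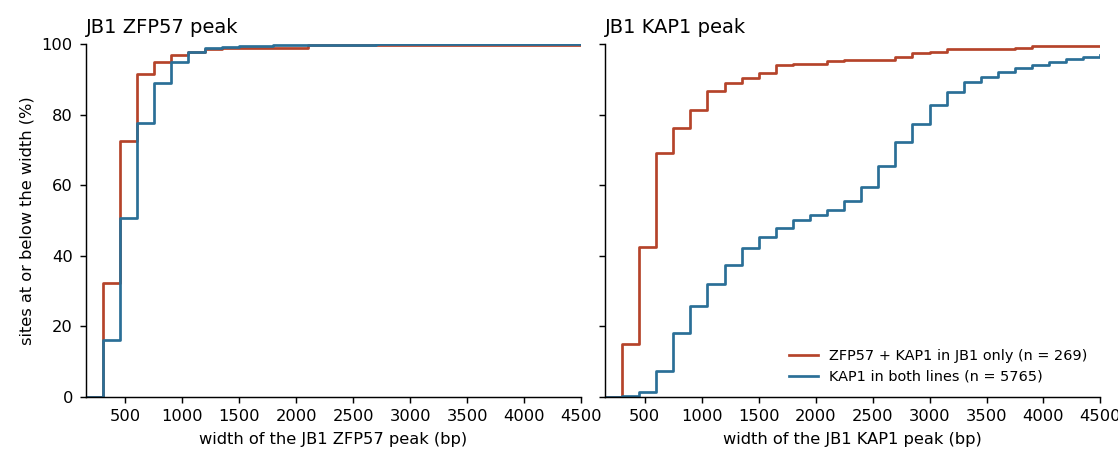
Cumulative percentage of sites (y axis) by the width of the JB1 ZFP57 peak (left) and of the widest overlapping JB1 KAP1 peak (right), in bp on a linear axis that ends at 4500 bp. The curves of the JB1-only sites (red) and of the sites with KAP1 in both lines (blue) are close for ZFP57 and apart for KAP1, where the medians are 600 and 1800 bp.

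The width of the JB1 KAP1 peak moved with the lack of a BJ1 KAP1 peak over the whole list. Of the JB1 KAP1 peaks of 300 bp over a ZFP57 peak, 40 of 50 had no BJ1 KAP1 peak (80.0%, 66.3% to 90.0%). The share was 50.3% (42.0% to 58.6%) at 450 bp, 17.1% (13.6% to 21.1%) at 600 bp, 2.83% (1.93% to 3.99%) at 750 to 900 bp and 0.439% (0.246% to 0.723%) above 900 bp. KAP1 peaks with no JB1 ZFP57 peak over them had shares of 44.7%, 24.2%, 11.9%, 5.95% and 1.99% in the same order. The lack of a BJ1 KAP1 peak is part of the rule that chose the sites, and a wider peak has more length over which to meet a BJ1 peak, so these shares are a description. The part of width alone and of peak strength was not tested.

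The motif was also less frequent in the JB1-only sites at the same KAP1 width. At 600 bp it was found in 28 of 72 JB1-only sites (38.9%, 27.6% to 51.1%) and in 84.0% (79.7% to 87.8%) of the comparison set. At 750 to 900 bp the shares were 66.7% (48.2% to 82.0%) and 90.1% (88.2% to 91.9%), and above 900 bp they were 70.0% (55.4% to 82.1%) and 87.1% (86.0% to 88.0%). At 450 bp they were 35.1% (24.4% to 47.1%) and 56.2% (44.1% to 67.8%), whose intervals overlapped, as did those at 300 bp, where the comparison set held 10 sites.

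The JB1-only sites were placed by the distance to the nearest of the 68471 autosomal BJ1 KAP1 peaks. The distance at other places without BJ1 KAP1 is not given, so whether the sites lie closer than such places is not shown. The distance to the nearest was 2850 bp at the median. It was 0 bp, meaning peaks that touch without overlapping, at 31 sites, 150 bp at 19, up to 1 kb at a further 51, up to 10 kb at 87, up to 100 kb at 77 and more than 100 kb at 4. The motif was found in 64.0% (49.2% to 77.1%) of the 50 sites within 150 bp and in 35.8% (25.4% to 47.2%) of the 81 sites more than 10 kb away. The farthest site was near *Efna5*, which encodes an ephrin ligand, at 166650 bp, and it held no motif. In 39 sites the JB1 KAP1 peak itself reached a BJ1 KAP1 peak beside the ZFP57 peak. These had a median KAP1 width of 1650 bp and a motif in 69.2% (52.4% to 83.0%), whereas the other 230 had 600 bp and 40.0% (33.6% to 46.6%).

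On the other side of the rule, 76 ZFP57-KAP1 sites of JB1 without ZFP57 in BJ1 shared at most 150 bp with a BJ1 KAP1 peak. Their median JB1 KAP1 width was 1650 bp, and 53 of them (69.7%) held a motif. Of the named sites just outside, the peak in an intron of *Tmem163* held 1 motif under a KAP1 peak of 450 bp, and the peak near *Olfr417* held none under a KAP1 peak of 1800 bp. A BJ1 ZFP57 peak lay within 1 kb of 2 JB1-only sites and within 10 kb of 6. The median distance was 590550 bp (504750 to 709200), against 583500 bp over all autosomal ZFP57 peaks and 553800 bp at the sites with KAP1 in both lines.

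**Figure D3:**
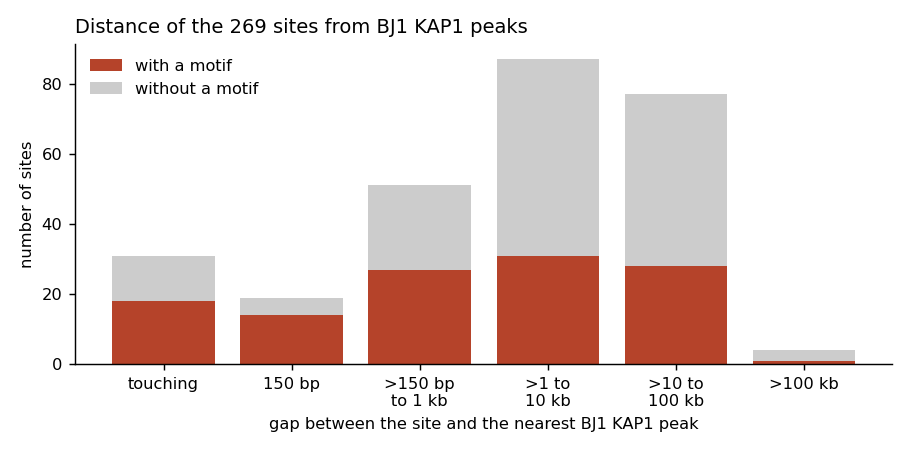
Number of JB1-only sites (y axis) by the distance to the nearest BJ1 KAP1 peak (x axis, unequal classes), split into sites with a motif (red) and without (grey). With a motif are 18 of 31 touching sites, 14 of 19 at 150 bp, and 28 of 77 at over 10 to 100 kb.

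The JB1-only sites were lower in GC and CpG than the sites with KAP1 in both lines. The median GC content was 44.7% (43.3% to 45.8%) against 49.7% (49.6% to 49.8%), and the median was 13.3 (11.1 to 13.3) CpG per kb against 36.7 (36 to 36.7). The peaks without KAP1 in JB1 had medians of 41.7% and 6.67 CpG per kb. Within the JB1-only sites, those with a motif had a median GC of 48.9% (46.7% to 50.7%) and those without had 41.1% (40.0% to 42.7%). The KAP1 peak was 600 bp (600 to 750) wide at the median with a motif and 450 bp (450 to 600) without.

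Repetition of the sequence was measured by how often each 20-base word of a peak occurs in mm9, which is the B6 genome. Each site was given the median over its words. The median of these values was 99 copies (70 to 168) at the JB1-only sites, against 462 (433 to 494) at the sites with KAP1 in both lines. Within the latter it was 9 (4 to 16) at the 523 sites with ZFP57 in BJ1 and 526 (501 to 546) at the 5242 without, so the JB1-only sites lay between them. Sites with at least 1000 copies were 86 of the 269 (32%, 26.4% to 37.9%), against 24.6% (23.5% to 25.8%) of the comparison set, 7.07% (5.03% to 9.62%) of its sites with ZFP57 in BJ1 and 27.2% of all autosomal ZFP57 peaks. The motif was found in 11 of these 86 (12.8%, 6.56% to 21.7%) and in 92.3% (90.7% to 93.6%) of the sites with KAP1 in both lines at 1000 or more copies. This class has no upper limit, and copy number was not matched within it. The upper quartile was 2118 copies over all JB1-only sites and 1020 over the comparison sites with a motif. The 2 largest groups of related sites (below), 74 sites with a motif in 2, had medians of 4410 and 12976 copies. Of the 51 JB1-only sites whose median word occurred at 1 place of the genome, 38 had a motif (74.5%, 60.4% to 85.7%), against 93.1% (90.3% to 95.3%). The difference between the classes was larger at 1000 or more copies than at 1 copy, although the sites at 1000 or more were not of like copy number. Less than 50% of the 50-base words, the length of the reads, were at 1 place of the genome in 65.4% of the JB1-only sites, in 80.1% of the comparison set and in 66.8% of all autosomal ZFP57 peaks, so the assignment of reads to these places is uncertain. The part of read assignment in the lists was not tested.

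**Figure D4:**
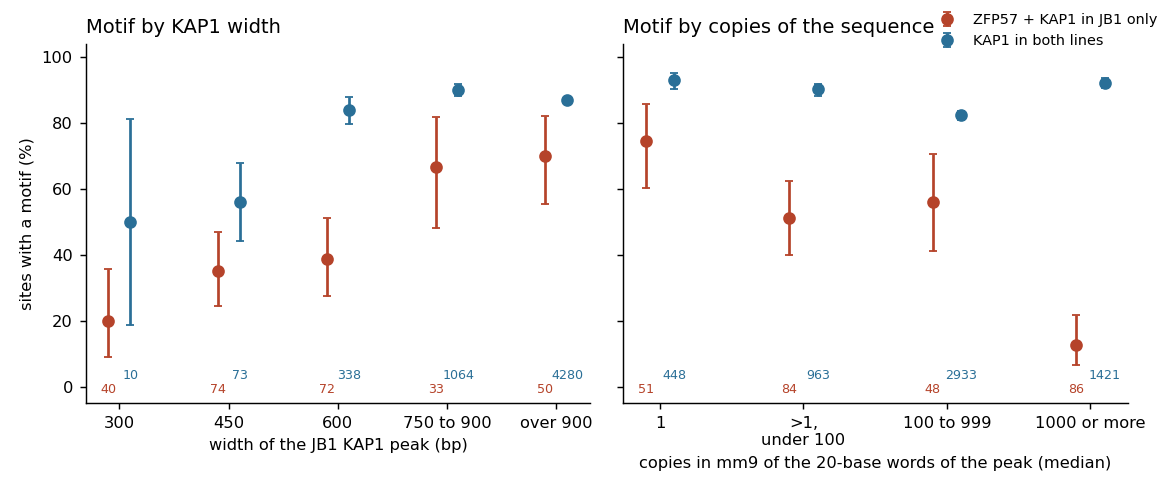
Percentage of sites with a motif by the width of the JB1 KAP1 peak (left) and by the median number of copies in mm9 of the 20-base words of the peak (right), for the JB1-only sites (red) and the sites with KAP1 in both lines (blue); bars are 95% Clopper-Pearson intervals and the small numbers give the sites. At 1000 or more copies, a class without an upper limit in which copy number was not matched, the shares are 12.8% and 92.3%.

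Of the 269 JB1-only sites, 167 (62.1%) shared at least 50 words of 20 bases with another of them, in 18 groups, 11 of which had 3 or more sites. The other 102 sites shared sequence with no other, and 45 of them (44.1%, 34.3% to 54.3%) held a motif. The groups fell apart by motif. The 2 largest held 38 and 36 sites, and 1 site of each had a motif. These sites were highly repeated, with medians of 4410 and 12976 copies, and low in CpG, with 6.67 per kb in each. Sequence of the larger group was shared by 7.72% of the JB1 ZFP57 peaks without KAP1 and 0.642% of the sites with KAP1 in both lines, and sequence of the second by 22.1% and 0.954%. Together they held 72 of the 150 JB1-only sites without a motif. Outside them, 117 of 195 sites had a motif (60.0%, 52.8% to 66.9%), still below the 87.0% of the comparison set. The most common 30 bases of each are given to show what these motif-free sites share; they were found in 16 and in 9 sites, and are read from chr1:5414937-5414966 and chr2:55067078-55067107, plus strands.
Group of 38: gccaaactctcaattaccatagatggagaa
Group of 36: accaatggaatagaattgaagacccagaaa

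The next groups were rich in motifs, and their most common 30 bases with a motif are printed to compare the flanks. In the group of 24 sites, 22 had a motif, and in the group of 17, 16 had a motif and 10 had a couple. The groups of 12 and 7 had 9 and 7 sites with a motif. The examples lie at chr2:42056293-42056322 (minus strand), chr4:24404658-24404687 (minus), chr2:172571616-172571645 (plus) and chr2:35382047-35382076 (plus).
Group of 24: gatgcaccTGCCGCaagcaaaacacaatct
Group of 17: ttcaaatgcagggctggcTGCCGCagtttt
Group of 12: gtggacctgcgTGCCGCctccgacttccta
Group of 7: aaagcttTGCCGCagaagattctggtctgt

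The group of 7 had sequence in common with 1464 sites with KAP1 in both lines (25.4%), and its printed 30 bases occurred in 311 of those sites. It comprised the peaks in introns of *Enpp1* and of *Tiam1*, an exchange factor for Rac, and intergenic peaks closest to *Gm13447*, *Setd3*, *Ext1*, *Abhd5* and *1110020A21Rik*. All 7 lay within 1 kb of a BJ1 KAP1 peak and had JB1 KAP1 peaks of 1200 to 2100 bp. The group of 12 had sequence in common with 243 sites of the comparison set (4.22%), a median KAP1 width of 2250 bp and a BJ1 KAP1 peak within 1 kb of all 12 sites. It included a peak in an intron of *Alk*, a receptor tyrosine kinase.

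The group of 17 sites held most of the couples shown above. The motifs of its 10 couples all started 29 bp apart in inverted orientation, TGCCGC on one strand and GGCCGC on the other. Its sites included the peaks in introns of *Serinc5* and *Cmya5* and the intergenic peaks nearest *Dcn*, *Ripk3*, *Mms22l*, *Gm11675* and *Gm13576*. JB1 ZFP57 peaks were 300 to 1350 bp wide and KAP1 peaks 450 to 1500 bp wide in this group. All 17 lay within 1 kb of a BJ1 KAP1 peak, and 15 (88.2%, 63.6% to 98.5%) lay between BJ1 KAP1 peaks within 2 kb on both sides, against 45 of all 269 JB1-only sites (16.7%, 12.5% to 21.7%). At *Dcn*, for example, BJ1 had KAP1 peaks of 450 bp and 1200 bp on the flanks of the JB1 ZFP57 peak and none on it. Sequence of the group was also shared by 39 sites with KAP1 in both lines, of which 97.4% had a motif, and by 0 of the 3795 peaks without KAP1 in JB1.

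**Figure D5:**
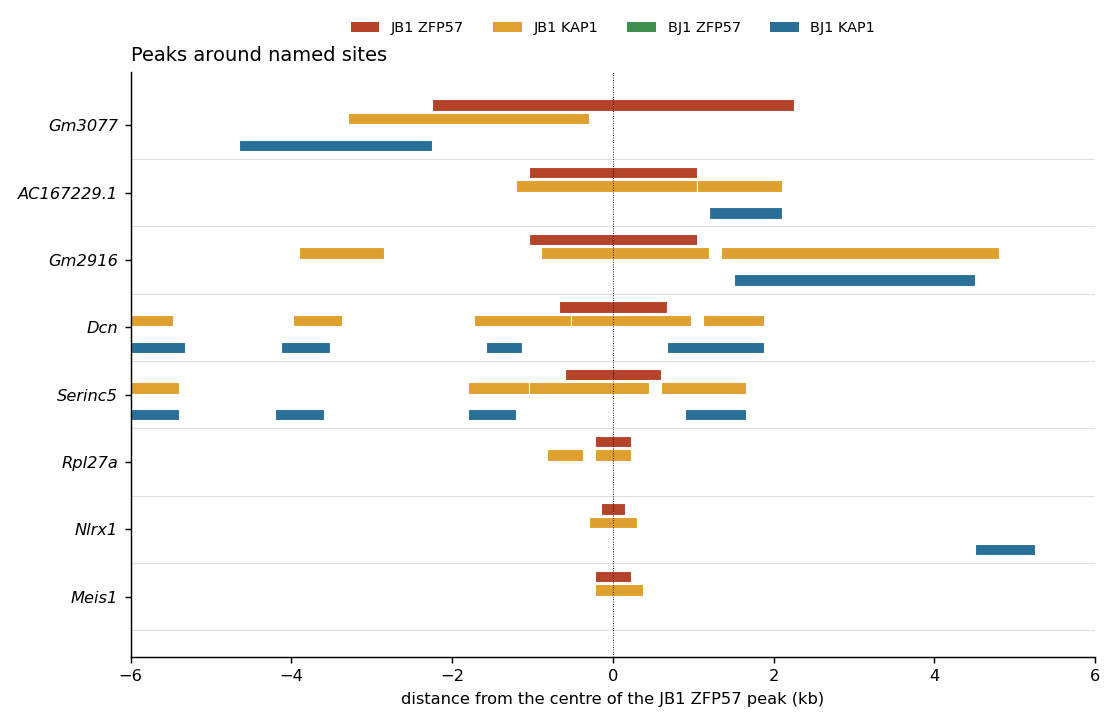
Peaks of the 4 lists within 6 kb of 8 JB1-only sites, the 5 widest and 3 in coding sequence, drawn to scale against the distance from the centre of the JB1 ZFP57 peak (kb, x axis). The tie at the last of the widest was broken by chromosome. BJ1 KAP1 peaks (blue) flank the sites of *Dcn* and *Serinc5* on both sides, and none lies within 6 kb of *Rpl27a* and *Meis1*; no BJ1 ZFP57 peak appears.

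By position relative to GENCODE M1 genes, 204 JB1-only sites were intergenic (75.8%, 70.3% to 80.8%), 48 lay in introns (17.8%), 8 in coding sequence (2.97%), 9 in other exons (3.35%) and 0 in UTRs (at most 1.36%). The sites with KAP1 in both lines were intergenic in 77.2% (76.1% to 78.3%) and intronic in 19.2%, and of all autosomal ZFP57 peaks 73.1% were intergenic. A start site lay within 1 kb of 11 JB1-only sites (4.09%, 2.06% to 7.20%), against 2.43% (2.05% to 2.86%) of the comparison set and 2.97% of all. Against the whole comparison set the intervals of gene context overlapped, except that other exons, 5 of the 9 those of pseudogenes, held 3.35% (1.54% to 6.26%) against 0.885% (0.659% to 1.16%). Of all autosomal ZFP57 peaks 1.07% lay in other exons, and of the comparison sites with ZFP57 in BJ1 2.68% (1.47% to 4.45%), whose interval overlapped that of the JB1-only sites. The intervals of these classes also overlapped for introns (24.3%, 20.7% to 28.2%), UTRs (2.10%, 1.05% to 3.73%) and start sites of any gene within 1 kb (8.03%, 5.85% to 10.7%). They did not overlap in 3 contexts, in which the comparison sites with ZFP57 in BJ1 had 57.2% (52.8% to 61.5%) intergenic against 75.8%, 13.8% (10.9% to 17%) in coding sequence against 2.97% (1.29% to 5.78%), and 5.54% (3.74% to 7.87%) within 1 kb of a protein-coding start against 0.743% (0.0902% to 2.66%).

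Of the JB1-only sites, 2 lay within 1 kb of the start of a protein-coding gene, *Gm7866* (chr9:72022351-72022800) and *Gm5239* (chr18:35696251-35696850). *Gm7866* held 4 motifs and *Gm5239* held 3. The peak over the pseudogene *Gm12350* (chr4:34432951-34433550) held 4. At the read length, 45.9% of the words of the *Gm7866* peak, 82.2% of *Gm5239*, 41.6% of *Gm12350* and 68.3% of *Rpl27a* were at 1 place of the genome, so that the place of reads there is uncertain. Other coding sites were at *Tmcc1*, a protein of the endoplasmic reticulum, at *Rpl27a*, a protein of the large ribosomal subunit, at *Nlrx1*, an innate immune receptor of mitochondria, and at *Meis1*, a homeobox transcription factor. *Rpl27a* (chr7:116663851-116664300) had 2 motifs under a KAP1 peak of 450 bp, 31650 bp from BJ1 KAP1. *Meis1* (chr11:18785551-18786000) had 1 motif under a KAP1 peak of 600 bp, 50550 bp from BJ1 KAP1. *Nlrx1* had 1 motif and *Tmcc1* had 0.

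The JB1-only sites were compared with lists of genes. Of the 40 imprinted genes listed, 0 overlapped a JB1-only site or had one within 10 kb, whereas 21 sites with KAP1 in both lines overlapped such a gene (0.364%), as did 0.224% of all autosomal ZFP57 peaks. A count of 0 in 269 allows a share of up to 1.36%, so a difference was not detectable with this number of sites. The 21 pluripotency genes, 18 genes of the repressor machinery and 19 germline genes had 0 JB1-only sites and 0 sites of the comparison set. Of all autosomal ZFP57 peaks they had 0%, 0% and 0.0203%, so a count of 0 is near the background. Of the 364 numbered *Zfp* genes, *Zfp101* held a site in an intron (chr17:33505801-33506250), without a motif and with a median of 14627 copies. This 1 site is 0.372% of the JB1-only sites, against 0.346% of all autosomal ZFP57 peaks. Olfactory receptor genes had 4 JB1-only sites within 10 kb (1.49%, against 1.34% of all autosomal ZFP57 peaks), at *Olfr297*, *Olfr647-ps1*, *Olfr1361* and *Olfr1459*. *Olfr1361* had 2 motifs and *Olfr297* and *Olfr1459* had 0. The clustered protocadherin and Hox genes and the vomeronasal receptor genes with a number in the name had 0 within 10 kb, against 0.0305%, 0.0102% and 0.529% of all autosomal ZFP57 peaks. The pseudogene *Vmn2r-ps62*, which that list did not hold, had a site with 1 motif at 1146 bp (chr7:91961101-91961550).

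The widest JB1-only site, over the pseudogene *Gm3077* (chr14:43552351-43556850), was 4500 bp wide, held 0 motifs and touched a BJ1 KAP1 peak. The next were 2100 bp wide. The site at chr10:99691501-99693600 had 4 motifs and lay 150 bp from BJ1 KAP1, and that in an intron of *Gm2916* (chr14:3999751-4001850) had 0 and lay 450 bp away. *Dcn* (1350 bp) and *Serinc5* (1200 bp) had 2 each. Another site near *Gm2916* (chr14:3992851-3994050) tied with *Serinc5* at 1200 bp and had 0. Width and number of motifs were therefore not ordered alike among the widest sites. Of the 13 sites with 3 or more motifs, 7 were of the group of 17.

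The JB1-only sites were spread over all 19 autosomes. They made up between 2.32% (chr16, 0.855% to 4.97%) and 7.20% (chr15, 4.25% to 11.3%) of the JB1 ZFP57-KAP1 sites of a chromosome, and the intervals overlapped. No 3 of them lay within 100 kb, and 4 pairs did, near *Mup-ps5*, in an intron of *Man1c1*, near *Gm8922* and at *Gm2916*. The reverse set, BJ1 ZFP57-KAP1 sites without either peak in JB1, had 43 of 690 sites (6.23%), of which 13 held a motif (30.2%, 17.2% to 46.1%). The motif share over all 690 is not given here, so this share has no background and is not comparable with the shares in JB1.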

How the data were processed

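ZFP57 and KAP1 were measured by ChIP-seq in JB1 and BJ1 ESCs, each antibody and line being sequenced in 1 library, and the input of each line was not used here. Reads of 50 bp were mapped by the authors to mm9 (Bowtie, at most 2 mismatches), and MACS was run on every library separately (*P*-value threshold 1e-05). The submitters' notes name CASAVA 1.8.2, Bowtie 0.12.7, SAMtools 0.1.18 and bedtools 2.14.3-1. The deposited lists hold peak positions alone, with no score, fold enrichment or read count, so depth is unknown. All edges lay on a grid of 150 bp windows, and width was used in place of strength.

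Peaks overlapped when they shared at least 1 bp. The KAP1 width of a site was that of the widest overlapping JB1 peak. Motifs were exact matches to TGCCGC and GGCCGC on either strand of mm9, wholly inside the peak. The background was all autosomal windows of the widths of the sites. Copies of words of 20 and 50 bases were counted on both strands of mm9. Gene context was taken from GENCODE M1, in the order coding sequence, UTR, other exon, intron. Intervals are exact Clopper-Pearson 95% for shares and order-statistic 95% for medians. The sites, gene lists and motif forms were chosen with earlier results of these data known. The sites named are the 5 widest, those with most motifs or a couple (10 with most motifs where over 10), those within 1 kb of a protein-coding start or nearest a gene of the lists, the nearest to and farthest from BJ1 KAP1, and 5 just outside the rule. Other names, such as the coding sites, were chosen after their values were seen. Alternatives covered the overlap rule, distances, widths, chromosomes, motif window, couple distance and gene set. The overlap, motif, copy and grouping steps were tested on simulated data. Some sites are not reported here. The software was numpy 2.4.6, numba 0.67.0, pandas 2.3.3, scipy 1.17.1, matplotlib 3.10.9 and pysam 0.24.0 under Python 3.11.15.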

Additional observations from a re-analysis of the deposited data

Results flagged for a closer look

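The X and Y chromosomes, which are outside the comparison, held 44 ZFP57 peaks of JB1 with KAP1 in JB1 and neither peak in BJ1, of 836 JB1 ZFP57 peaks there. All 44 were on X. They were singled out because they lie in data outside the main set of autosomal sites. A motif was found in 19 of them (43.2%), their median ZFP57 width was 600 bp and the widest was 72450 bp. No motif share or width over all JB1 ZFP57 peaks of X is given here, and the 836 include peaks without KAP1. Both lines are male, so X came from the mother and was JF1 in JB1 and B6 in BJ1. A difference between the lines on X therefore cannot be told apart from a difference between the strains. The input libraries were not used here, so no level of background is given for them.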

How the results depend on the processing

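No paired analysis was possible because each line and antibody has 1 library and no test was made. Of the 65 alternative values computed for 8 measures, 50 stayed within 1.5 times (counts) or within the 95% interval of the value reported (shares and medians), and 15 moved. The measures are counts, shares and medians of 1 set, so they have no direction that could change. The number of sites became 168 with no BJ1 peak within 1 kb, 81 with none within 10 kb and 162 with JB1 peaks of at least 450 bp. Without BJ1 peaks within 1 kb, TGCCGC was found in 35.1% and either motif in 35.7% of sites, a couple in 2.98%, and the median KAP1 width was 450 bp. Within 10 kb, these were 35.8%, 35.8%, 2.47% and 450 bp, and 69.1% were intergenic. A couple was found in 10.5% of sites with JB1 peaks of at least 450 bp. With couple starts less than 25 bp apart it was found in 0.743%, against 6.85% at the sites with KAP1 in both lines. A protein-coding start lay within 1 kb of 0.743%. The sites whose JB1 KAP1 peak overlapped no BJ1 KAP1 peak (230, chosen after seeing the data) had a motif in 40.0%. In the central 300 bp of the peak, a motif was found in 40.5% of the JB1-only sites and in 76.8% of the sites with KAP1 in both lines. Why these values moved was not tested. The depth of the libraries is unknown, and a weaker BJ1 peak under the threshold of the caller cannot be told apart from no binding.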
